A study of Mus musculus with 3 samples.

Results

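Heat shock protein genes encode molecular chaperones, and 10 of them were followed here out of the 22535 genes counted in the series: Hspa1a, Hspa1b, Dnajb1, Hsph1, Hsp90aa1, Hspa8, Hspb1, Cryab, Hspd1 and Hspe1. The members are a list of gene names. All 10 had counts in each of the 3 libraries and passed the filter on low counts in every comparison below. The cells came from the kidney cortex of WT1CreERT2; Rosa26-tdTfl/+ mice, in which tamoxifen switches on the red fluorescent protein tdTomato (tdT) in cells that express Wt1 and in their descendants. Because Cre is driven from the Wt1 locus, the label marks podocytes and parietal epithelial cells (PECs) in the uninjured kidney. The Sham library was a mixture of kidney cells enriched for tdT+ cells after sham surgery. IRI24h-TDN was the corresponding mixture of tdT+ and tdT- cells from kidneys injured by severe bilateral ischemia and reperfusion (IRI) 24 h earlier. IRI24h-TD held only sorted tdT+ cells, also taken 24 h after IRI. Each library pooled several kidneys, and the number and ages of the mice were not given in the labels.

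Heat shock proteins bind unfolded or partly folded proteins, keep them from aggregating and pass them on for refolding or degradation. The transcription factor HSF1 switches on the inducible members after heat, hypoxia or oxidative stress, through short repeated elements upstream of their start sites. Tubular cells are known to make inducible HSP70 and small heat shock proteins after renal ischemia, and enzymatic dissociation of a tissue is itself known to induce several of these genes.

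The elements recognised by HSF1 are built from inverted GAA units, and the stretches that carry matches to them are shown because members of several chaperone systems have such a stretch in the windows searched. RefSeq windows of 250 bases upstream of a start site (GRCm38.p6) were given for 7 of the 10 members, in 10 windows, and were searched on both strands for GAANNTTC and TTCNNGAA. Windows for Cryab, Hsp90aa1 and Hspa8 were not used here. Capitals mark the matches, and each line is written 5′ to 3′ on the strand of its gene.
Hspa1a: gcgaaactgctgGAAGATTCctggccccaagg
Hspa1b: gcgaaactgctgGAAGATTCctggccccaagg
Hspb1: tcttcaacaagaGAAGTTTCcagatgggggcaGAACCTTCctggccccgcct
Hspe1: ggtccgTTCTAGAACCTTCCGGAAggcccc
Hspd1: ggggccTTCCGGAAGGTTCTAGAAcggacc
Hsph1: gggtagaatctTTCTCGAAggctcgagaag
The Hspa1a stretch lies at chr17:34972241-34972272 and the Hspa1b stretch at chr17:34959323-34959354, both on the minus strand, with the match at -104 to -97 from the start site. Over the whole 250 bases these neighbouring genes had 247 identical bases and 3 that differed. The Hspb1 stretch lies at chr5:135887790-135887841 on the plus strand and held a pair of matches, at -117 to -110 and -97 to -90. Hspe1 and Hspd1 lie head to head, and their lines are the same stretch, chr1:55088053-55088082, read on the plus and on the minus strand. It is the only stretch found among these windows with at least 3 alternating units in a row. Counted from the start site of Hspe1, it holds 2 overlapping runs of 3 units, at -89 to -77 and -84 to -72. A run of at least 3 units was found in 0.466% of 32851 RefSeq windows of the same length. The Hsph1 stretch lies at chr5:149636351-149636380 on the minus strand, and no match lay in either window of Dnajb1. No match lay either in another window of Hspd1, chr1:55088244-55088493, which adjoins the end of the annotated gene (55077835 to 55088243). The Hspd1 stretch shown lies inside that gene, upstream of another start site. By the gene annotation (GENCODE M21) all 30 bases of the Hspe1 and Hspd1 stretch and 26 of the 30 of Hsph1 lie in untranslated exon sequence, and none of the other stretches do. GAANNTTC occurred in 6.69% of all windows, TTCNNGAA in 7.17% and either in 12.8%. A match describes the letters and is not evidence of binding. The other members are single genes elsewhere in the genome (GRCm38): Dnajb1 on chromosome 8 (83608193 to 83612653), Cryab and Hspa8 on chromosome 9 (50751325 to 50756636 and 40800984 to 40810087) and Hsp90aa1 on chromosome 12 (110690605 to 110702728).

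Sham held 69980443 UMIs (unique molecular identifiers, each marking a captured RNA molecule), IRI24h-TDN held 92355554 and IRI24h-TD held 93470709. Below, values in threes follow this order of libraries. Barcodes with at least 200 genes and at most 50% mitochondrial UMIs were kept as cells, which left 8047, 9024 and 9689 cells, or 26760 of 30008 barcodes, with a median of 7746, 9151 and 9529 UMIs per cell. Among the kept cells, 270 barcodes occurred in more than 1 library, and none in all 3. Cells were clustered without the chaperone genes, and clusters were named "X-like" after lists of marker genes. The podocyte-like class was the largest, at 4378, 5124 and 8698 cells, or 54.4%, 56.8% and 89.8% of each library, and all 10 of its markers were detected. PEC-like cells numbered 430, 105 and 158, and cells like proximal tubular epithelial cells (PTECs) numbered 1049, 173 and 116. Cluster 8, with a weak podocyte signature, and cluster 11, with markers of both PECs and PTECs, stayed unnamed. Levels are given as CPM, the UMIs of a gene scaled to a total of 1000000 UMIs over all cells of a class in a library. With 1 library per condition there was no replicate and no test was made. The 95% intervals are exact Poisson or Clopper-Pearson intervals and cover counting error only. A gene was counted as different when its CPM differed by 2-fold or more, and each count of members is set beside the share of all genes past the same limit. Every comparison with Sham uses the same Sham library, so the comparisons are not independent of each other.

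Hspa1a and Hspa1b encode the stress-inducible cytosolic HSP70, whose transcripts are scarce in unstressed cells. In podocyte-like cells Hspa1a stood at 335, 131 and 122 CPM. Hspa1b stood at 369, 177 and 165 CPM in the same cells. Both were highest in the Sham library, and the 2 libraries taken after IRI lay close together. The log2 ratio of IRI24h-TDN to Sham in podocyte-like cells was -1.35 (95% counting interval -1.40 to -1.31) for Hspa1a and -1.06 (-1.10 to -1.02) for Hspa1b. In PEC-like cells Hspa1a stood at 578, 269 and 251 CPM, again highest in Sham. Hspa1b there stood at 376, 205 and 265 CPM. PTEC-like cells had the lowest Hspa1a among the epithelial classes, at 92.7, 26.8 and 54.4 CPM, and their Hspa1b, at 84.9, 55.7 and 88.5 CPM, was as high in IRI24h-TD as in Sham within counting error.

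The highest Hspa1a levels were found outside the epithelium. Monocytic-like cells had 2949 CPM in Sham and 601 CPM in IRI24h-TDN, a log2 ratio of -2.30 (-2.36 to -2.23). They pooled clusters 6 and 18, with 253 and 29 cells in Sham and 711 and 206 in IRI24h-TDN. In IRI24h-TDN Hspa1a stood at 763 CPM in cluster 6 and 81.9 CPM in cluster 18. Cluster 18 had too few cells in Sham to be read alone, and the part of the changed mixture was not tested. Endothelial-like cells had 2034 CPM in Sham and 957 CPM in IRI24h-TDN. Hspa1a was lower in IRI24h-TDN than in Sham by 2-fold or more in all 11 classes with at least 50 cells in both libraries, with log2 ratios from -2.30 to -1.05 and a median of -1.35. Without the 6% of cells with the most UMIs its ratio was no longer past 2-fold in PTEC-like cells (-0.78) and in PEC-like cells (-0.99). Intercalated-like cells pooled clusters 16 and 17, with 66 and 127 cells in Sham and 234 and 135 in IRI24h-TDN. From Sham to IRI24h-TDN, Hspa1a went from 374 to 241 CPM in cluster 16, short of 2-fold. In cluster 17 it went from 746 to 357 CPM. The part of this changed mixture in the class ratio was not tested. Hspa1b had a log2 ratio below 0 in all 11 classes and was past 2-fold in 5 of them. Its ratios ran from -2.27 in monocytic-like cells to -0.24 in connecting tubule and principal-like cells. Of 8226 genes tested in all 11 classes, 73 (0.887%) were lower by 2-fold or more in every class, among them Hspa1a and Hspe1, and 33 were higher in every class. Ribosomal protein genes made up 30 of these 73, out of 88 tested, so the lower level in every class was shared with genes that have no chaperone role.

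**Figure D1:**
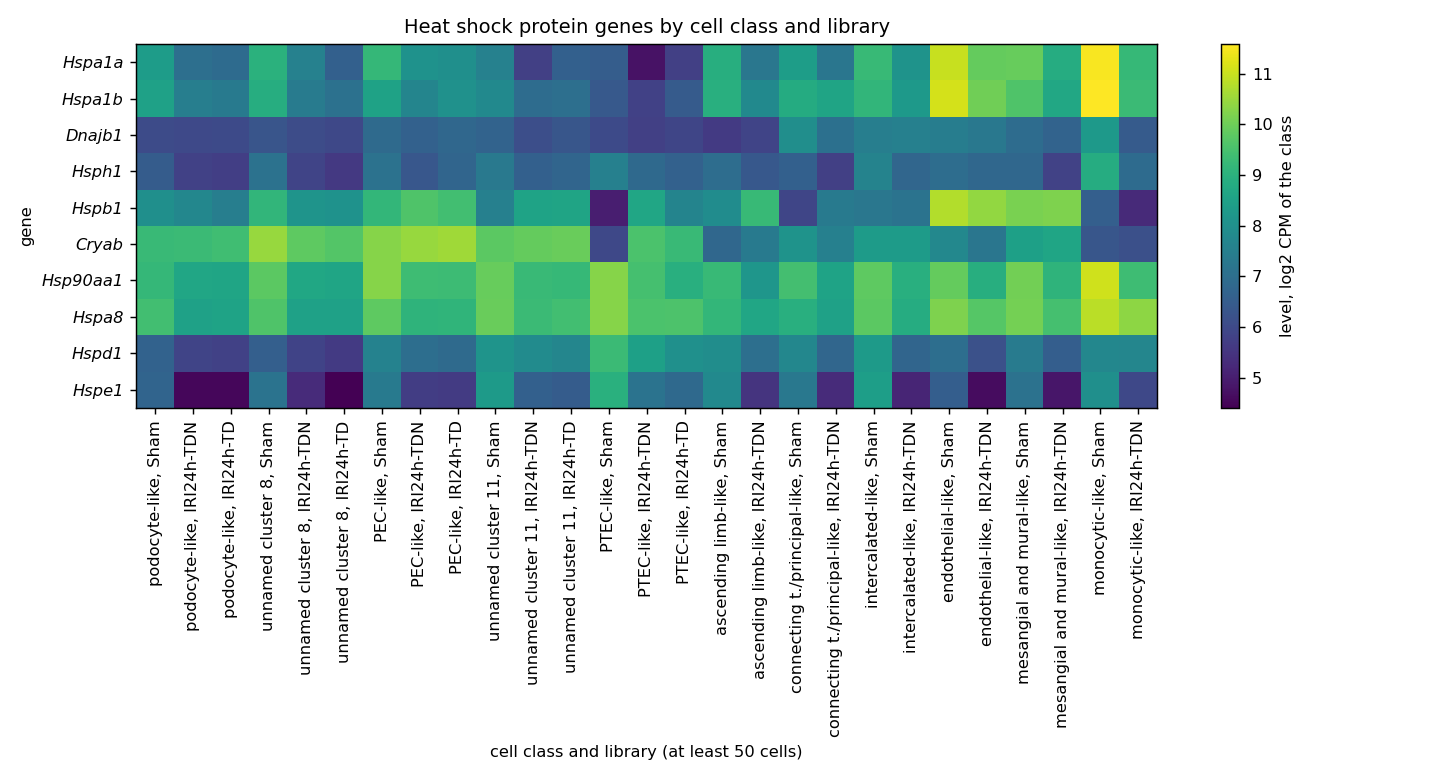
Colour map of the level (log2 of CPM) of each heat shock protein gene, in rows, in each cell class and library with at least 50 cells, in columns. Hspa1a and Hspe1 are darker (lower) in both libraries after IRI than in Sham in podocyte-like cells (Hspa1a at 335, 131 and 122 CPM), while Cryab there lies between 614 and 663 CPM.

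The mature Hspa1a and Hspa1b transcripts share 63.8% and 67.6% of their 31-base words with each other, so the division of UMIs between them is uncertain, and how shared reads were assigned is not given in the sources used here. Over the 30 groups of a class in a library with at least 50 cells, log2(CPM + 1) of the pair had a Pearson r of 0.96. Genes outside the list with the most similar pattern to Hspa1a, among 9625 genes, were Tbc1d2b (r = 0.83), Stat2, 9930111J21Rik2, Txndc16 and Kat6a (r = 0.82 each). These groups share libraries and depth, and the correlations are descriptive.

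The pair was unevenly spread over podocyte-like cells. The 10% of cells with the most Hspa1a UMIs held 70.6%, 85.6% and 85.1% of them, whereas for Hspa8, the constitutive family member, the shares were 25.3%, 25.5% and 26.0%. After thinning each cell to 2000 UMIs, Hspa1b was found in 50.3% of Sham podocyte-like cells with Hspa1a and in 15.3% of those without it. The corresponding shares were 54.8% and 7.75% in IRI24h-TDN, and 47.5% and 8.14% in IRI24h-TD. The share was higher among cells with Hspa1a in each library, within the uncertainty of the shared sequence.

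Among the 6 podocyte-like clusters with at least 50 cells in each library, cluster 1 had the highest level of both genes in each library. Its Hspa1a stood at 613, 366 and 326 CPM, and its Hspa1b at 750, 528 and 489 CPM. Cluster 0 had Hspa1a at 158, 38.5 and 37.7 CPM. The ratio of the highest to the lowest cluster for Hspa1a was 3.89, 9.77 and 8.65, against 1.34, 1.21 and 1.20 for Hspa8. The clusters were made without these genes, yet they differed in depth and in immediate early genes, which are switched on within minutes of a stimulus or of dissociation. The summed level of the 12 immediate early genes was 17893, 32118 and 30956 CPM in cluster 1 and 37699, 38202 and 38989 CPM in cluster 0. The other clusters did not keep this opposite order. Cluster 3 had the second-highest Hspa1a in IRI24h-TDN and IRI24h-TD (140 and 126 CPM) and the highest immediate early level there (40552 and 41071 CPM), and cluster 7 had Hspa1a at 97.4 CPM in IRI24h-TDN with an immediate early level of 25187 CPM. The part of dissociation in the cluster pattern was not tested.

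**Figure D2:**
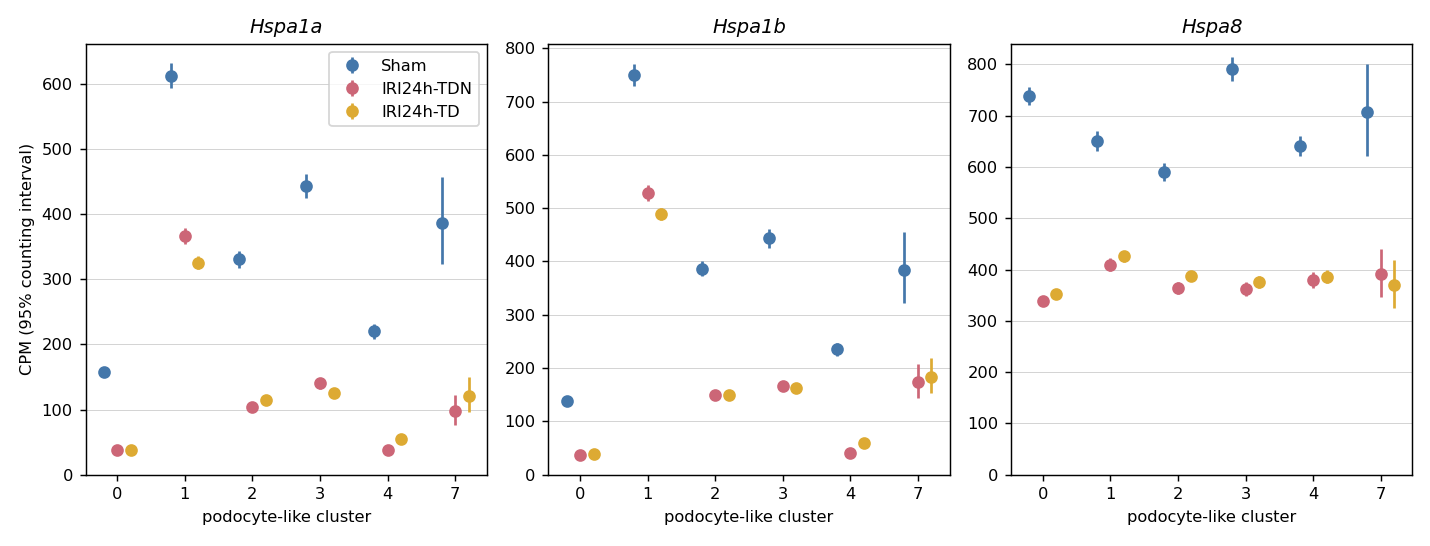
Hspa1a, Hspa1b and Hspa8 (CPM, with 95% counting intervals) in each of 6 podocyte-like clusters and in each library. Cluster 1 is highest for Hspa1a (613, 366 and 326 CPM) and for Hspa1b, while the highest cluster for Hspa8 is 1.34, 1.21 and 1.20 times the lowest.

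Dnajb1 encodes the HSP40 protein that delivers substrates to HSP70, and Hsph1 encodes HSP110, which exchanges the nucleotide of HSP70. Dnajb1 stood at 66.0, 63.1 and 65.2 CPM in podocyte-like cells at 119, 98.6 and 112 CPM in PEC-like cells and at 65.2, 54.3 and 59.7 CPM in PTEC-like cells. Its interval for the podocyte-like log2 ratio of IRI24h-TDN to Sham included 0 (-0.07, from -0.14 to 0.01). Dnajb1 was past 2-fold in 1 class, the monocytic-like cells, where 311 CPM in Sham stood against 88.7 CPM in IRI24h-TDN. Hsph1 stood at 89.7, 55.2 and 53.2 CPM in podocyte-like cells, 139, 82.3 and 107 CPM in PEC-like cells and 184, 116 and 100.3 CPM in PTEC-like cells. It was below 0 in all 11 classes, past 2-fold in monocytic-like cells and in unnamed cluster 8.

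Hsp90aa1, the inducible cytosolic HSP90, and Hspa8, the constitutive HSC70, were also highest in Sham. Hsp90aa1 stood at 580, 404 and 393 CPM in podocyte-like cells, 1239, 660 and 642 CPM in PEC-like cells and 1253, 705 and 488 CPM in PTEC-like cells. Its log2 ratio of IRI24h-TDN to Sham ran from -1.70 in monocytic-like cells to -0.52 in podocyte-like cells and was past 2-fold in 4 of 11 classes. In monocytic-like cells it stood at 2139 CPM in Sham and 659 CPM in IRI24h-TDN. Hspa8 stood at 681, 367 and 381 CPM in podocyte-like cells, 898, 542 and 546 CPM in PEC-like cells and 1245, 756 and 767 CPM in PTEC-like cells. It was below 0 in all 11 classes, from -1.10 to -0.43, and past 2-fold only in unnamed cluster 8. Pseudogenes outside the count tables share sequence with Hspa8 (12 of them) and Hsp90aa1 (3), and reads from such copies cannot be told apart from these genes.

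Hspd1 (HSP60) and Hspe1 (HSP10) encode the ring and the lid of the mitochondrial chaperonin, are transcribed in opposite directions and share the stretch shown above. Hspe1 stood at 106, 23.2 and 22.9 CPM in podocyte-like cells, 166, 52.0 and 50.1 CPM in PEC-like cells and 495, 142 and 115 CPM in PTEC-like cells. It was lower by 2-fold or more in IRI24h-TDN in all 11 classes, with log2 ratios from -3.29 in intercalated-like cells (344 against 35.3 CPM) to -1.67 in PEC-like cells. Hspd1 stood at 101, 59.0 and 55.4 CPM in podocyte-like cells, 193, 128 and 118 CPM in PEC-like cells and 628, 356 and 257 CPM in PTEC-like cells. Its ratio was below 0 in all 11 classes but past 2-fold in 1, the intercalated-like cells at -1.56. In monocytic-like cells Hspe1 was at -2.02 while the interval of Hspd1 included 0 (-0.05, from -0.23 to 0.14). In Sham, Hspd1 was 2.63 higher on the log2 scale in PTEC-like than in podocyte-like cells and Hspe1 2.23 higher. The genes most like Hspd1 over the 30 groups were Napsa (r = 0.86), Pdp2 (0.86), Khk (0.85), Slc27a2 (0.84) and Ugt2b38 (0.84), and Hspe1 had an r of 0.85 with Hspd1. Pseudogenes outside the count tables share sequence with Hspd1 (7), Hspe1 (3) and Hspb1 (1).

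The small heat shock proteins, which hold unfolded proteins without using ATP, differed in direction between classes. Cryab, which encodes αB-crystallin, stood at 614, 627 and 663 CPM in podocyte-like cells and at 1244, 1428 and 1516 CPM in PEC-like cells. Hspb1, which encodes HSP25 in the mouse and binds actin filaments, stood at 252, 212 and 177 CPM in podocyte-like cells and at 576, 789 and 683 CPM in PEC-like cells. Neither gene was past 2-fold in these glomerular classes. In PTEC-like cells Cryab stood at 61.9, 753 and 618 CPM, and Hspb1 at 32.4, 407 and 198 CPM. The log2 ratio of IRI24h-TDN to Sham was 3.60 (3.47 to 3.75) for Cryab and 3.65 (3.46 to 3.84) for Hspb1, the largest values of any member in any class of that comparison.

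The PTEC-like class did not hold the same kind of cells in each library, and this touches both ratios and those of several other members. When each cell was named alone by its own markers, a split added after the data were seen, 1035 of 1049 PTEC-like cells in Sham were named PTEC and none injured tubule. In IRI24h-TDN 49 of 173 were named PTEC and 109 (63.0%) injured tubule, a list led by Havcr1, which encodes the injury marker Kim1. The PTEC-named cells of these libraries also differed from each other. Their Havcr1 stood at 5.63 CPM in Sham and 820 CPM in IRI24h-TDN, and Slc34a1, of the PTEC list, at 4967 and 1164 CPM. The split therefore does not set uninjured cells of IRI24h-TDN apart. Cryab stood at 60.8 CPM in the PTEC-named cells of Sham, 134 CPM in those of IRI24h-TDN and 967 CPM in the injured tubule cells of IRI24h-TDN. Hspb1 stood between 27.3 and 35.0 CPM (95% counting interval) in the PTEC-named cells of Sham, at 10.5 CPM in those of IRI24h-TDN and at 541 CPM in the injured tubule cells. In IRI24h-TD, Cryab stood at 273 CPM in 25 PTEC-named cells and 740 CPM in 43 injured tubule cells, and Hspb1 at 57.4 and 264 CPM. Its other 48 cells, with another name or none and a median of 1070 UMIs, had Cryab at 664 CPM and Hspb1 at 181 CPM. In IRI24h-TD the counting intervals of these 48 cells and of the injured tubule cells overlapped for both genes. A split of the PTEC-like cells by a UMI of Havcr1 alone, after thinning to 2000 UMIs, gave in IRI24h-TDN 1.48 Cryab UMIs per cell with it and 0.677 without it, and 0.876 and 0.354 Hspb1 UMIs. In IRI24h-TD the order was the other way, at 1.04 and 1.10 for Cryab and 0.40 and 0.724 for Hspb1 over 25 and 29 cells, with intervals that overlapped. With every cell of the series named alone, the PTEC log2 ratio of IRI24h-TDN to Sham was 0.62 for Cryab and turned to -0.98 for Hspb1. Of the 1183 Hspb1 UMIs of the IRI24h-TDN class, 7 lay in its PTEC-named cells. Hspe1 did not split this way, at 497 CPM in PTEC-named cells of Sham, 152 CPM in those of IRI24h-TDN and 144 CPM in the injured tubule cells. In the same groups Hsp90aa1 stood at 1254, 379 and 787 CPM and Hspd1 at 630, 260 and 396 CPM. Hspa1b stood at 82.3, 30.1 and 61.0 CPM there, Dnajb1 at 62.7, 30.1 and 63.3 CPM, and Hspa8 at 1246, 832 and 754 CPM. The PTEC-like levels of these genes given above pool these cells.

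**Figure D3:**
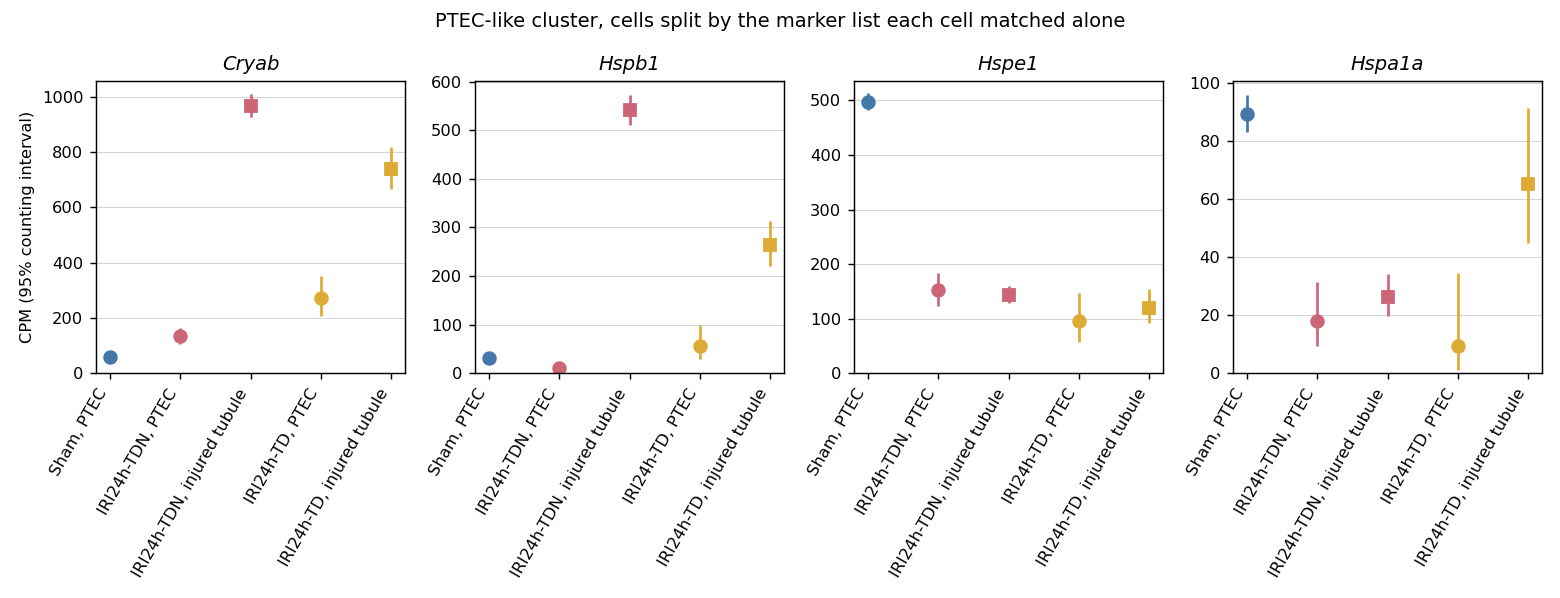
Cryab, Hspb1, Hspe1 and Hspa1a (CPM, with 95% counting intervals) in PTEC-like cells divided by the name each cell has by its own markers, with circles for PTEC and squares for injured tubule. Cryab is at 60.8 CPM in the PTEC-named cells of Sham, 134 CPM in those of IRI24h-TDN and 967 CPM in the injured tubule cells of IRI24h-TDN.

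Across the other classes, Hspb1 was higher in IRI24h-TDN than in Sham in ascending limb-like cells (604 against 241 CPM), in connecting tubule and principal-like cells (164 against 60.5 CPM) and in unnamed cluster 11 (381 against 186 CPM). It was lower in monocytic-like cells (38.2 against 96.1 CPM) and in unnamed cluster 8 (278 against 558 CPM), where Cryab was also lower (891 against 1434 CPM) and all 10 members were below 0. Endothelial-like cells had the highest Hspb1, at 1740 CPM in Sham and 1379 CPM in IRI24h-TDN, followed by mesangial and mural-like cells at 1132 and 1177 CPM, whose interval for the log2 ratio included 0 (0.06, from -0.03 to 0.14). Over the 30 groups, Cavin3 (r = 0.83), Pitpnm2 (0.82), Tgfb1i1 (0.81), Osmr (0.81) and Ltbp1 (0.80) were most like Hspb1. Rras2 (0.89), Epha2 (0.89), Arfip1 (0.87), Agap1 (0.87) and Ankrd1 (0.87) were most like Cryab. The pair had an r of 0.42 with each other.

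**Figure D4:**
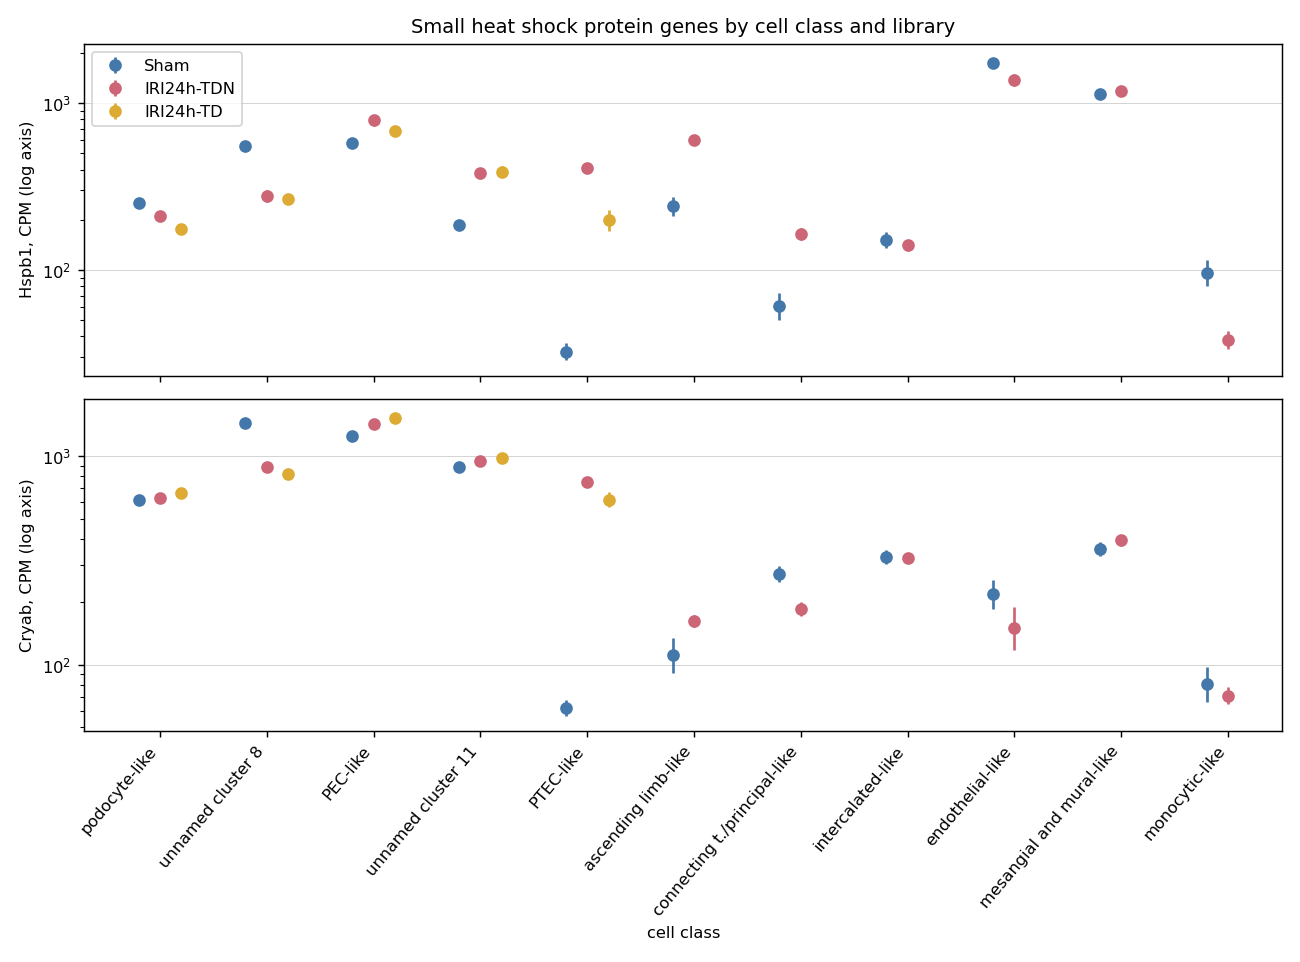
Cryab and Hspb1 (CPM on a log axis, with 95% counting intervals) by cell class and library. Both are low in PTEC-like cells of Sham (61.9 and 32.4 CPM) and higher in those of IRI24h-TDN (753 and 407 CPM), while Hspb1 in monocytic-like cells is lower in IRI24h-TDN (38.2 against 96.1 CPM).

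Members past 2-fold were counted in each class against all genes. In podocyte-like cells 3 of 10 members were lower in IRI24h-TDN than in Sham, where 11.6% of genes were, and the median log2 ratio was -0.74 over the members and -0.07 over all genes. In PEC-like cells 2 were lower (background 9.83%), with medians of -0.74 and -0.05. In PTEC-like cells 2 were higher (18.5%) and 2 lower (15.3%), with a median of -0.69 against 0.14. Ascending limb-like cells had 1 higher (9.24%) and 4 lower (12.8%), and connecting tubule and principal-like cells 1 higher (10.6%) and 2 lower (9.76%). Intercalated-like cells had 3 lower (7.57%), endothelial-like cells 3 (13.3%) and mesangial and mural-like cells 3 (8.08%). Monocytic-like cells had 7 lower (9.51%), with a median of -1.75 against 0.18. Unnamed cluster 11 had 1 higher (6.92%) and 2 lower (12.4%), and unnamed cluster 8 had 7 lower (12.6%), where Hspa1a stood at 514, 189 and 98.4 CPM in the 3 libraries. The shares of members in monocytic-like cells and unnamed cluster 8 stood furthest above their background, while those of PTEC-like cells in both directions lay near it.

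IRI24h-TD, sorted for tdT+ cells, was read within classes because its sort differs from that of Sham. In podocyte-like cells Hspa1a, Hspa1b and Hspe1, 3 of 10 members, were lower than in Sham (background 14.1%), and in PEC-like cells 2 members, Hspa1a and Hspe1, were (10.5%). PTEC-like cells had 2 higher (22.4%) and 3 lower (11.4%), where Hsp90aa1 at -1.36, Hspd1 at -1.29 and Hspe1 at -2.10 made up the latter. Unnamed cluster 11 had 1 higher (7.54%) and 1 lower (11%), and unnamed cluster 8 had 7 lower (12.2%). Between the libraries taken after IRI no member was past 2-fold in podocyte-like or PEC-like cells. In PTEC-like cells 1 member was higher in IRI24h-TD (Hspa1a, log2 ratio 1.02, background 9.33%) and 1 lower (Hspb1, -1.03, background 5.27%). These PTEC-like cells had a median of 1719 UMIs in IRI24h-TD and 13629 in IRI24h-TDN, and Hspa1a rested on 51 and 78 UMIs.

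**Figure D5:**
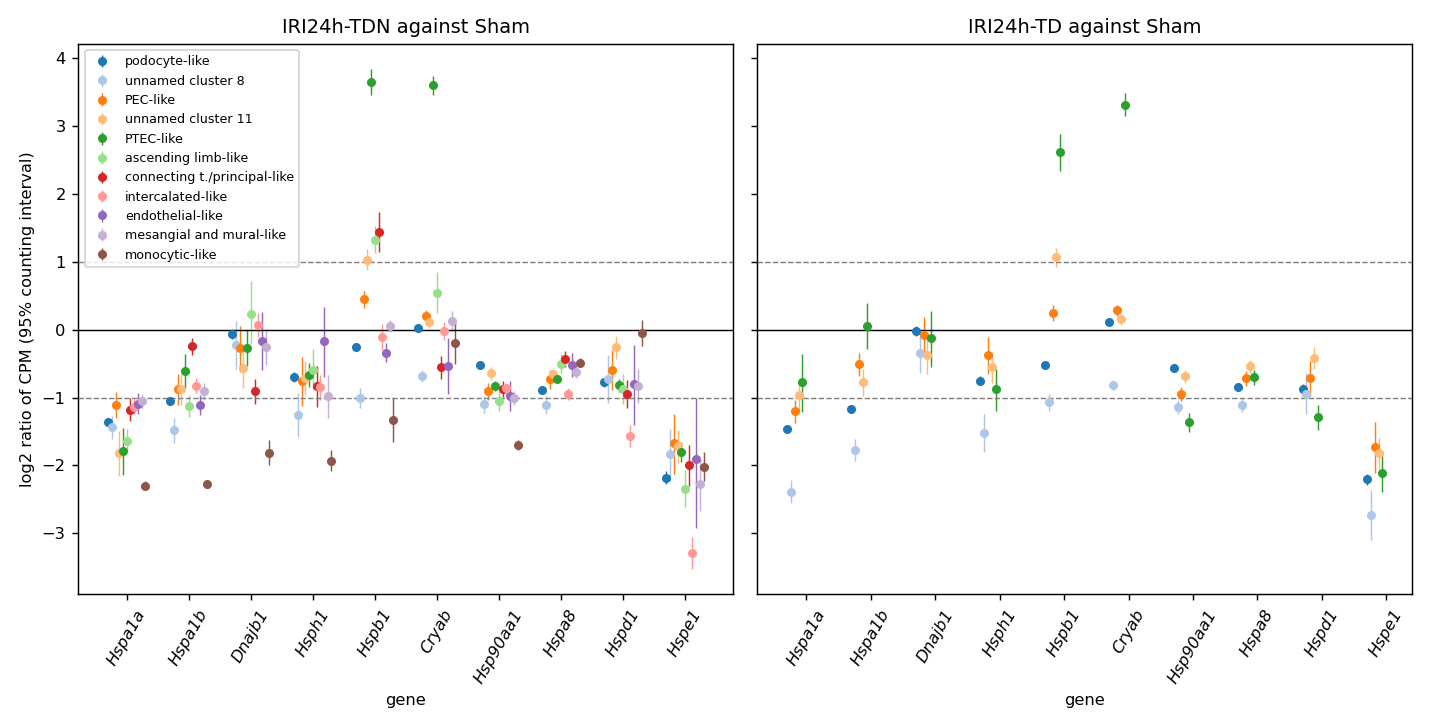
Log2 ratio of CPM for each heat shock protein gene by cell class, IRI24h-TDN or IRI24h-TD against Sham, with bars for the 95% counting interval and dashed lines at the 2-fold limit. Hspa1a and Hspe1 lie below the limit in all 11 classes of IRI24h-TDN, and Cryab and Hspb1 lie above it in PTEC-like cells (3.60 and 3.65).

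Within the Sham library the members also differed between cell types. Relative to podocyte-like cells, PEC-like cells had 3 members higher and none lower by 2-fold or more (34.4% of all genes were past the limit in either direction), namely Hspb1, Hsp90aa1 and Cryab. PTEC-like cells had 4 higher and 4 lower (51.9%), with Cryab at -3.31, Hspb1 at -2.96, Hspa1b at -2.12 and Hspa1a at -1.85 on the log2 scale among the lower. Ascending limb-like cells had 2 higher and 1 lower (37.9%), connecting tubule and principal-like cells 2 and 2 (39.1%), and intercalated-like cells 4 and none (39%). Endothelial-like cells had 4 higher and 1 lower (30.6%) and mesangial and mural-like cells 3 and none (36.9%). Monocytic-like cells had 8 higher and 2 lower (48%), where Hspa1a was 3.14 and Hspa1b 3.06 above podocyte-like cells on the log2 scale and the small heat shock proteins were the 2 lower. The monocytic-like count of 10 of 10 stood furthest from its background. The PEC-like, ascending limb-like and mesangial and mural-like counts of 3 of 10 lay near theirs. So did the connecting tubule and principal-like and intercalated-like counts of 4 of 10.

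The other chaperone systems were read from lists of pathway genes. Of 26 tested heat shock factors and co-chaperones of HSP70 and HSP90, 1 was lower by 2-fold or more in podocyte-like cells of IRI24h-TDN, Fkbp4 at -1.06, and none was higher (11.6% of all genes were lower there and 6.29% higher). The list's median of -0.06 lay beside -0.07 for all genes. Over the 11 classes its lowest median was -0.38, in intercalated-like cells, with 21 of 26 below 0. Its highest was 0.46, in monocytic-like cells, with 17 of 25 above 0, where the median of all genes was 0.18 and of the members -1.75. The 7 mitochondrial chaperones and proteases other than Hspd1 and Hspe1 had none past 2-fold in podocyte-like, PEC-like or PTEC-like cells, and their median in podocyte-like cells was -0.18. Of the chaperones of the endoplasmic reticulum, 4 of 10 were lower in podocyte-like cells (background 11.6%) and all 10 were below 0, with a median of -0.91, and Sdf2l1 was the lowest at -2.09. In PTEC-like cells 3 of 10 were lower (15.3%) and Hsp90b1, the HSP90 of the endoplasmic reticulum, was the lowest at -1.63.

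TRiC, the cytosolic chaperonin that folds actin and tubulin, went the other way in PTEC-like cells. There 6 of 7 tested subunits were higher by 2-fold or more in IRI24h-TDN (background 18.5%). The log2 ratios of all 7 ran from 0.99 for Cct4 to 1.25 for Cct3, with a median of 1.03 against 0.14 for all genes, and 6 of 7 were higher in IRI24h-TD (22.4%), with a median of 1.11 against 0.24. Monocytic-like cells had 3 of 7 higher (14.1%), with a median of 0.95, and podocyte-like cells none, with a median of 0.02. In IRI24h-TDN against Sham all 7 were also above 0 in unnamed cluster 11 (median 0.74) and connecting tubule and principal-like cells (0.50). The same held in PEC-like (0.45) and ascending limb-like cells (0.41). Medians were below 0 in intercalated-like cells (-0.10) and unnamed cluster 8 (-0.02). Of the other small heat shock proteins, 2 of 4 tested were higher in PEC-like cells (6.08%), where Hspb6 was the highest at 1.94 (43.3 against 11.3 CPM). The share of injured tubule cells given above applies to the TRiC values in PTEC-like cells too.

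The immediate early genes, which dissociation is known to induce, were set beside the members. Their summed level in podocyte-like cells was 28977 CPM in Sham and 36171 CPM in IRI24h-TDN, opposite in direction to Hspa1a, Hspa1b and Hspe1. It was also higher in IRI24h-TDN in ascending limb-like cells (8033 and 9520 CPM) and in unnamed cluster 8 (29924 and 37125 CPM). In PEC-like cells it was 30199 and 20940 CPM, in PTEC-like cells 7922 and 6052 CPM, and in monocytic-like cells 31546 and 14093 CPM, in the same direction as Hspa1a. It was also lower in IRI24h-TDN in connecting tubule and principal-like cells (14963 and 11751 CPM) and in unnamed cluster 11 (18250 and 12334 CPM). The sums were nearly level in intercalated-like (12077 and 11798 CPM), endothelial-like (22776 and 22046 CPM) and mesangial and mural-like cells (29679 and 29443 CPM). By gene, 8 of 12 had a log2 ratio above 0 in endothelial-like cells, 7 in mesangial and mural-like cells and 5 in intercalated-like cells. In ascending limb-like cells, whose sum was higher, 6 of 12 did. In PTEC-like cells of IRI24h-TD the summed immediate early level was 10320 CPM, above Sham, whereas Hspa1a was below Sham. The median mitochondrial share per cell was 4.28%, 3.92% and 3.27% over all kept cells. With surgery, kidney pool, dissociation and library differing together between Sham and the libraries after IRI, their parts in the lower Hspa1a and Hspe1 cannot be told apart.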

How the data were processed

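Single-cell RNA libraries (BD Rhapsody) were made from mouse kidney cortex, with 1 library each for Sham, IRI24h-TDN and IRI24h-TD. For each library the authors deposited a table of unnormalized UMI counts by gene and barcode. The submitters' processing notes name CASAVA 1.8, UMI-tools, Seurat and mm10, and the counting settings are not given in the sources used here.

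From these counts, barcodes with at least 200 genes and at most 50% mitochondrial UMIs were kept. Cells were clustered on 2000 variable genes, without 80 genes of the lists used here, and 30 components corrected between libraries with Harmony (written in numpy 2.4.6, theta 2), by leidenalg 0.10.2 (15 neighbours, resolution 1, 25 clusters) in Python 3.11.15 with scipy 1.17.1 and pandas 2.3.3. TMM factors came from edgeR 4.0.16 in R 4.3.3, as an alternative scaling only. A cluster took the name of the marker list with the highest mean log2 fold over the other clusters, where this was at least 1 and at least 3 markers were detected in 25% of its cells or more. Its 10 genes with the highest fold also had to hold at least as many markers of that list as of any other. Cluster 11 failed only this condition, with a mean of 2.23 for the PEC list but 0 such markers against 1 of another list. A cluster of low depth without such a marker also stayed unnamed. No doublet caller was run, and the study states that multiplets were removed. Only the fold calculation was tested on simulated data, as class sums with 4-fold changes put in. All of these changes were recovered. Of unchanged genes, 2.6% in podocyte-like, 3.8% in PTEC-like and 5.4% in PEC-like sums were also called past 2-fold. Clustering and naming were not simulated.

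UMIs were summed per class and library and scaled to CPM. Genes with at least 10 UMIs over both libraries entered a comparison, and a gene without UMIs in a library was given 3 counts. All members were named in every class, and from each other list the genes with the largest and smallest ratio in podocyte-like, PEC-like and PTEC-like cells, of which some are not reported here. The 5 genes most like a member were taken among those with a mean of 10 CPM. The members and lists were chosen with earlier results of these data known. Alternatives were other limits on cells, resolutions, namings, scalings and filters. Gene overlaps were read from GENCODE M21 and promoter windows from RefSeq.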

Additional observations from a re-analysis of the deposited data

Results flagged for a closer look

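Hspb1 went in opposite directions in different classes. In IRI24h-TDN against Sham its log2 ratio was 3.65 in PTEC-like cells and -1.33 in monocytic-like cells. In IRI24h-TD against Sham it was 2.61 in PTEC-like cells and -1.07 in unnamed cluster 8. The difference between classes was not tested, since each condition had 1 library. Of the PTEC-like cells, 63.0% in IRI24h-TDN and none in Sham carried the injured tubule name by their own markers.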

How the results depend on the processing

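Over the 9 named classes 32.2% of 90 pairs of member and class were lower by 2-fold or more in IRI24h-TDN than in Sham (31.1% to 37.8% over the alternatives) and 4.44% higher (1.43% to 4.44%). Of all genes, 7.57% to 15.3% were lower and 6.01% to 18.5% higher, depending on the class, so the share higher lay below its background. For IRI24h-TD against Sham 26.7% of 30 pairs were lower (25% to 36.7%) and 6.67% higher. Of all genes, 10.5% to 14.1% were lower and 4.89% to 22.4% higher there. The 6.67% higher came to 0% without correction between libraries and when each cell was named alone, but both values are fixed by PTEC-like cells, which held all these calls, being too few to enter. Between the libraries after IRI the calls also lay in PTEC-like cells alone, so that the 0% under those 2 alternatives is fixed in the same way. Of all genes, 4.31% to 5.27% were lower and 1.74% to 9.33% higher in this comparison. The 3.33% lower came to 0% with at most 20% mitochondrial UMIs, without the 6% of cells with the most UMIs, without the 1% of cells with the most UMIs of the gene, and with the mean of per-cell CPM. The 3.33% higher came to 0% at resolution 0.5, with at most 20% mitochondrial UMIs, with TMM, median-of-ratios or CPM outside mitochondrial, ribosomal, haemoglobin and member genes, with cells thinned to 2000 UMIs, without the 1% of cells and with per-cell CPM. In Sham 63.3% of pairs lay at 200 CPM or more (60% to 68.9%), and 50% of 80 were past 2-fold against podocyte-like cells (45% to 54.3%). The latter share lay within the range of all genes, 30.6% to 51.9% depending on the class. Of single ratios in podocyte-like, PEC-like and PTEC-like cells, 378 stayed within their counting interval and 91 moved beyond it. The remaining 1, Hspb1 in PTEC-like cells, was past 2-fold and turned to -0.984 when each cell was named alone. Of those below 2-fold, 3 changed sign: Hspa1b in PTEC-like cells to 0.153 with thinned cells, and in podocyte-like cells Cryab to -0.0279 at resolution 0.5 and Dnajb1 to 0.0142 with median-of-ratios scaling. Past 2-fold was lost by Hspa1a without the 6% of cells (PTEC-like -0.784, PEC-like -0.993), by Cryab in PTEC-like cells named alone (0.619) and by Hspa1b in podocyte-like cells (-0.992 with TMM, -0.978 with median-of-ratios, -0.98 with cells named alone). Leaving cluster 1 out of the podocyte-like class was chosen after seeing the data.

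No paired analysis was possible because each condition had 1 library, and for the same reason no replicate was left out. Intervals cover counting error only and leave out differences between mice and preparations. PTEC-like cells of IRI24h-TD had a median of 1719 UMIs, and the division of UMIs between Hspa1a and Hspa1b is uncertain.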
